A study of Mus musculus with 6 samples.

Results

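The 10 genes described here mark the fibroblasts of the meninges, the membranes that cover the brain, and served as a gauge of how much of these membranes was carried along when the cortex was taken out. They are Col1a1, Col1a2, Col3a1, Dcn, Lum, Ptgds, Aldh1a2, Slc22a6, Mgp and Igf2. Each symbol was matched to 1 Ensembl identifier of the deposited count table through the GENCODE annotation of GRCm38, so that 10 of 55487 genes were members. The rule that picks them uses no value of the table, but the members were chosen with earlier results of these data known.

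Total RNA was sequenced from mouse visual cortex at postnatal day 28. All 6 libraries were from the B6.CBA/Tar background, in a line mutated in an untranslated region of Mmp9, which encodes a secreted protease of the extracellular matrix. Wild-type mice (WT, labelled WT/WT), heterozygous mice (het, labelled UTRmut/WT) and homozygous mutants (UTRmut, labelled UTRmut/UTRmut) gave 2 libraries each. In every genotype replicate 1 was a female and replicate 2 a male, so each combination of genotype and sex was held by 1 library. Pairs of values are given in that order. No treatment is named. As a germ-line allele the mutation is carried by every cell type of the mutant mice. The labels do not say whether animals were pooled, shared a litter or were dissected on the same day. The p-values therefore measure no more than how far these samples spread, and some of that spread may be technical.

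Fibroblasts of the pia and arachnoid, the inner membranes of the meninges, lay down collagens I and III together with small leucine-rich proteoglycans that bind to the collagen fibrils. They also make retinoic acid, prostaglandin D2 and insulin-like growth factor 2, and take up organic anions from the cerebrospinal fluid. The cortex itself holds few such cells, around its larger vessels, and the pia adheres to its surface, so the amount of pia that stays on a piece of cortex can differ from one dissection to the next. In bulk tissue, fewer cells of a type and less RNA per cell cannot be told apart.

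Total counts per library were 9500090 to 11966579, and the floor that a count of 0 sets, 3 counts, corresponded to 0.251 to 0.316 CPM, the count scaled to the library total. All other CPM values use library totals adjusted by TMM factors. Intervals and floors cover counting error only. Mmp9 itself had 4 to 16 counts per library and passed in no genotype comparison (edgeR, Benjamini-Hochberg adjusted p = 0.9988 or above), which checks nothing about a mutation in its untranslated region. Of the 12 listed markers of cortical neurons all were tested, and Snap25, Syt1 and Camk2a were among the strongly expressed genes, at 199 to 243 RPKM (CPM divided by the exon length in kilobases). Males of 2 genotypes stood apart on choroid plexus: Ttr, the transthyretin gene that defines this tissue, had 487 counts in the WT male and 74 in the UTRmut male, against 2 to 7 in the other libraries.

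Sequence near the start sites was read for members that moved together across libraries. RefSeq promoter entries of GRCm38.p6 were matched for 6 of the 10 members (Col1a2, Col3a1, Ptgds, Aldh1a2, Slc22a6 and Igf2). The windows of 30 bases that end 11 bases before the start are shown for 4 of them, to set side by side a collagen, 2 enzymes and a transporter. Those of Col1a2 and Igf2, not shown, held neither motif searched. Capitals mark the letters TATA, which read the same on either strand, or CCAAT on either strand; these 2 motifs share no position here.
Col3a1, chr1:45311498-45311527, plus strand: acagggaaaaaTATAttaatcattgctttt
Ptgds, chr2:25469760-25469789, minus strand: aagcctgactcataaatagggggtctccac
Aldh1a2, chr9:71215749-71215778, plus strand: acgtCCAATaagaagcgccccccgcttgac
Slc22a6, chr19:8617956-8617985, plus strand: ccaagtcacactttaactcattgtcatcag
Over the same window of all 32851 promoter entries, 6.52% held TATA and 5.18% held CCAAT. Of the 6 members with an entry, 1 held TATA (Col3a1), 1 held CCAAT (Aldh1a2) and 4 held neither. These are matches of letters and not measured binding sites.

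Levels of the members differed widely. In RPKM, Ptgds was the most abundant at 260 ± 90.4 (SD over 6 libraries), a spread that includes the 243 of Snap25. Mgp followed at 8.17 ± 3.04. Col1a2 (2.40 ± 0.624), Col1a1 (2.35 ± 1.33), Aldh1a2 (2.11 ± 0.514), Col3a1 (1.49 ± 0.614) and Dcn (1.42 ± 0.454) came next, then Slc22a6 (0.971 ± 0.393) and Lum (0.391 ± 0.177). Igf2 was last at 0.0217 ± 0.0133. The ranges over libraries of Ptgds and Mgp, of Mgp and Col1a2, and of Lum and Igf2 did not overlap, while every other pair of neighbours in this order overlapped. Aldh1a2 above Col3a1, Dcn above Slc22a6 and Slc22a6 above Lum nevertheless held within each of the 6 libraries.

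Before any grouping by genotype, most members had the same high and low libraries. The het male library was highest of all 6 for 7 of the 9 members that passed the filter on low counts, where 13.8% of all 16119 tested genes had their highest value. The UTRmut male library was lowest for 6 of the 9, against 16.9% of all genes, and the WT female library for the other 3, against 21.7%. Relative to each gene's own mean over libraries, the median member stood at -0.49 (log2) in the WT female, 0.37 in the WT male, 0.17 in the het female, 0.60 in the het male, 0.19 in the UTRmut female and -0.60 in the UTRmut male. The 2 libraries of a genotype thus lay on opposite sides of the mean in WT and in UTRmut, and on the same side in het. The median of the 8 genes of RNA quality and dissociation moved in part alongside. It was highest in the het male (0.17, 8 of 8 above their mean) and lowest in the WT female (-0.14, 2 of 8), with -0.04 in the UTRmut male. Rn7sk had 15387 and 15500 CPM in the WT female and male, while Malat1 went the other way, with 13114 and 9457. The 8 genes summed to 29688 and 26437 CPM in the WT female and male, 31904 and 32930 in the het pair, and 28066 and 29455 in the UTRmut pair. None was at 0 in every library, and their part in the members' pattern was not tested.

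**Figure D1:**
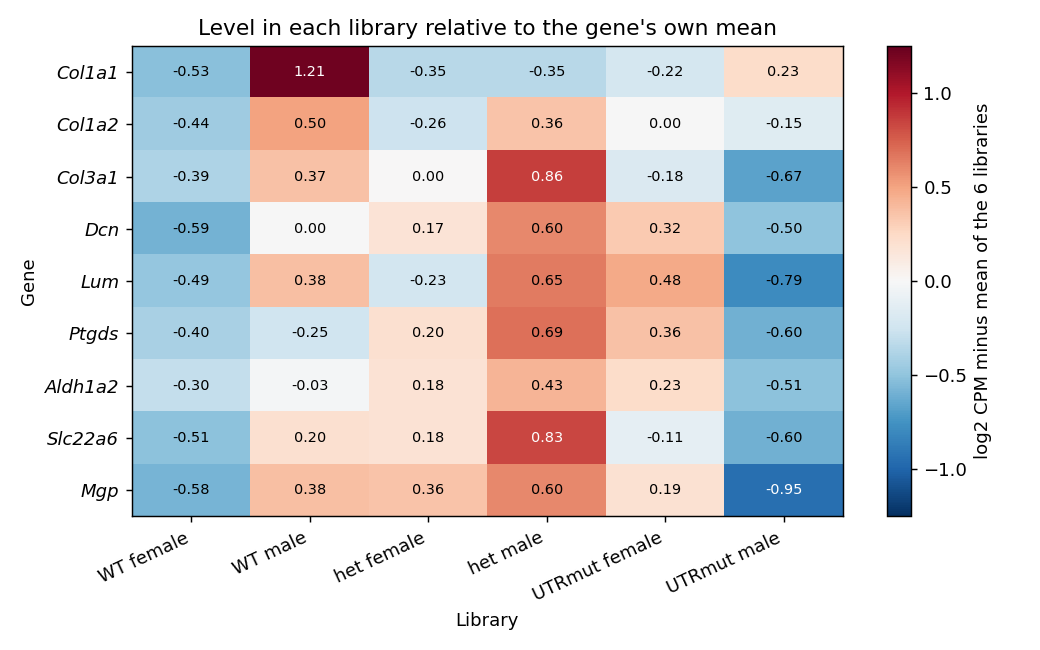
Level of the 9 tested genes (rows) in the 6 libraries (columns) as log2 CPM minus the gene's mean over libraries, with the value in each cell. The WT female column is below 0 for all 9 genes, the het male column is above 0 for all but Col1a1, and the UTRmut male column is below 0 for all but Col1a1.

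Type I collagen is a heterotrimer of the products of Col1a1 and Col1a2. Col1a1 (ENSMUSG00000001506, chromosome 11, 94936224 to 94953042, plus strand) had 9.62 CPM in the WT female and 32.6 in the WT male, 10.9 in each het library, and 11.9 and 16.4 in the UTRmut female and male. The WT male stood far above the rest, the UTRmut male came next, and the 4 other libraries lay close together. Col1a2 (ENSMUSG00000029661, chromosome 6, 4504814 to 4541544, plus strand) had 21.3 and 41.0 CPM in the WT female and male, 24.2 and 37.3 in the het pair, and 28.9 and 26.1 in the UTRmut pair. Its 2 highest libraries were the WT and het males, and the genotypes overlapped. Although both chains enter the same molecule, their order over libraries differed: het male was second of 6 for Col1a2, while for Col1a1 only the WT female was lower than the het pair. The pattern of Col1a1 had a Pearson r of 0.04 with the mean of the 8 other tested members (6 libraries, described only, since all share the same libraries and scaling), against 0.78 for Col1a2 and 0.75 to 0.93 for the rest.

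The libraries that were highest in Col1a1 were also those with Ttr. Col1a1 and Ttr both had their highest level in the WT male (32.6 and 42.0 CPM) and their next in the UTRmut male (16.4 and 6.43 CPM), and the 4 others had 9.62 to 11.9 CPM of Col1a1 and 0.192 to 0.727 CPM of Ttr. Of the 16 choroid plexus markers 6 were tested and none was at 0 in every library. All 16 summed to 294 to 348 CPM in WT, 295 to 302 in het and 306 to 326 in UTRmut, of which Enpp2, also made by oligodendrocytes, had 284 to 311 CPM. The part of this tissue in the Col1a1 values was not tested. Of 10 bone and cartilage markers 5 were tested. All 10 summed to 21.1 to 25.2 CPM in WT, 24.9 to 27.2 in het and 24.6 to 28.8 in UTRmut. In these sums Sox9, also on the list of astrocyte markers, had 9.62 to 12.7 CPM and Acan 3.95 to 8.39. Bglap2 was at 0 in all libraries, and Bglap, the osteocalcin gene, had 1 count in the WT male and 0 elsewhere. The part of bone and cartilage in the Col1a1 values was not tested.

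Col3a1 encodes the chain of type III collagen, which forms thin fibrils with type I. Col3a1 (ENSMUSG00000026043, chromosome 1, 45311538 to 45349706, plus strand) had 10.5 and 17.8 CPM in the WT female and male, 13.8 and 25.2 in the het pair, and 12.1 and 8.60 in the UTRmut pair. Both UTRmut libraries lay below both het libraries, and WT overlapped with each.

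Decorin and lumican, the products of Dcn and Lum, are small leucine-rich proteoglycans that bind collagen fibrils and set their spacing. The 2 genes are near each other on the plus strand of chromosome 10, Dcn (ENSMUSG00000019929) from 97479609 to 97518143 and Lum (ENSMUSG00000036446) from 97565128 to 97572703. Dcn had 5.20 and 7.93 CPM in the WT female and male, 8.93 and 12.1 in the het pair, and 9.97 and 5.56 in the UTRmut pair. Both het libraries of Dcn lay above both WT libraries. The UTRmut male lay between the WT female and the WT male, and the UTRmut female above both. Lum was scarce, at 5 to 16 counts per library, with 0.577 and 1.21 CPM in the WT pair, 0.727 and 1.49 in the het pair, and 1.30 and 0.434 in the UTRmut pair. The exact 95% Poisson intervals of its lowest library (0.141 to 1.01 CPM) and its highest (0.852 to 2.42 CPM) overlapped. For the 8 other tested members the intervals of the lowest and highest libraries did not overlap, and their variance over libraries was 3.11 to 570 times that of counting error, against 2.13 times for Lum.

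Among the enzymes, Ptgds makes prostaglandin D2 and Aldh1a2 makes retinoic acid from retinal. Ptgds (ENSMUSG00000015090, chromosome 2, 25466709 to 25470046, minus strand) had 308 and 344 CPM in the WT female and male, 469 and 658 in the het pair, and 524 and 268 in the UTRmut pair. Both het libraries lay above both WT libraries, whereas the UTRmut libraries lay on either side of them. Aldh1a2 (ENSMUSG00000013584, chromosome 9, 71215789 to 71296243, plus strand) had 3.75 and 4.57 CPM in the WT pair, 5.30 and 6.34 in the het pair, and 5.50 and 3.21 in the UTRmut pair. Its libraries fell in the same order as those of Ptgds. Oligodendrocytes also make Ptgds. Relative to the mean of the libraries the median of their 12 markers was at -0.18 (log2) in the UTRmut female, the second highest library for Ptgds, and at 0.09 in the UTRmut male, the lowest. For het against WT 4 of the 12 had a positive log2 fold (48.9% of all genes) and 8 a negative one, with a median of -0.06. One of the 12, Apod (apolipoprotein D, named with its values known), had both het libraries above both WT libraries, as Ptgds did: it had 45.4 and 48.0 CPM in WT, 63.7 and 79.3 for the het pair, and 60.4 and 50.8 for the UTRmut pair. The 12 summed to 3968 to 4001 CPM in WT, 3868 to 3946 in het and 3225 to 4195 in UTRmut, none was at 0 in every library, and their part in the Ptgds values was not tested.

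Slc22a6 encodes the organic anion transporter OAT1. Slc22a6 (ENSMUSG00000024650, chromosome 19, 8618039 to 8628299, plus strand) had 2.50 and 4.22 CPM in the WT female and male, 4.16 and 6.62 in the het pair, and 3.36 and 2.34 in the UTRmut pair. Both UTRmut libraries lay below both het libraries. Mgp encodes matrix Gla protein, a secreted inhibitor of calcification. Mgp (ENSMUSG00000030218, chromosome 6, 136872435 to 136875823, minus strand) had 5.97 and 11.8 CPM in the WT pair, 11.6 and 13.8 in the het pair, and 10.3 and 4.60 in the UTRmut pair. UTRmut again lay below het, and WT overlapped with both.

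Igf2, a growth factor that the meninges are known to secrete, could not be measured with this table. Igf2 (ENSMUSG00000048583, chromosome 7, 142650766 to 142666816, minus strand) had 1 count in each of 5 libraries and 3 in the UTRmut female, at or under the floor of 3 counts, and gives no fold. It shares 3596 of its 5723 exon bases with Gm49394, a protein-coding gene annotated on the same strand, which was listed at 0 in all 6 libraries. How reads that match both genes were counted is not given in the sources used here, so the low value does not show how much Igf2 RNA was present. H19, the imprinted neighbour of Igf2, had 3 to 8 counts per library.

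**Figure D2:**
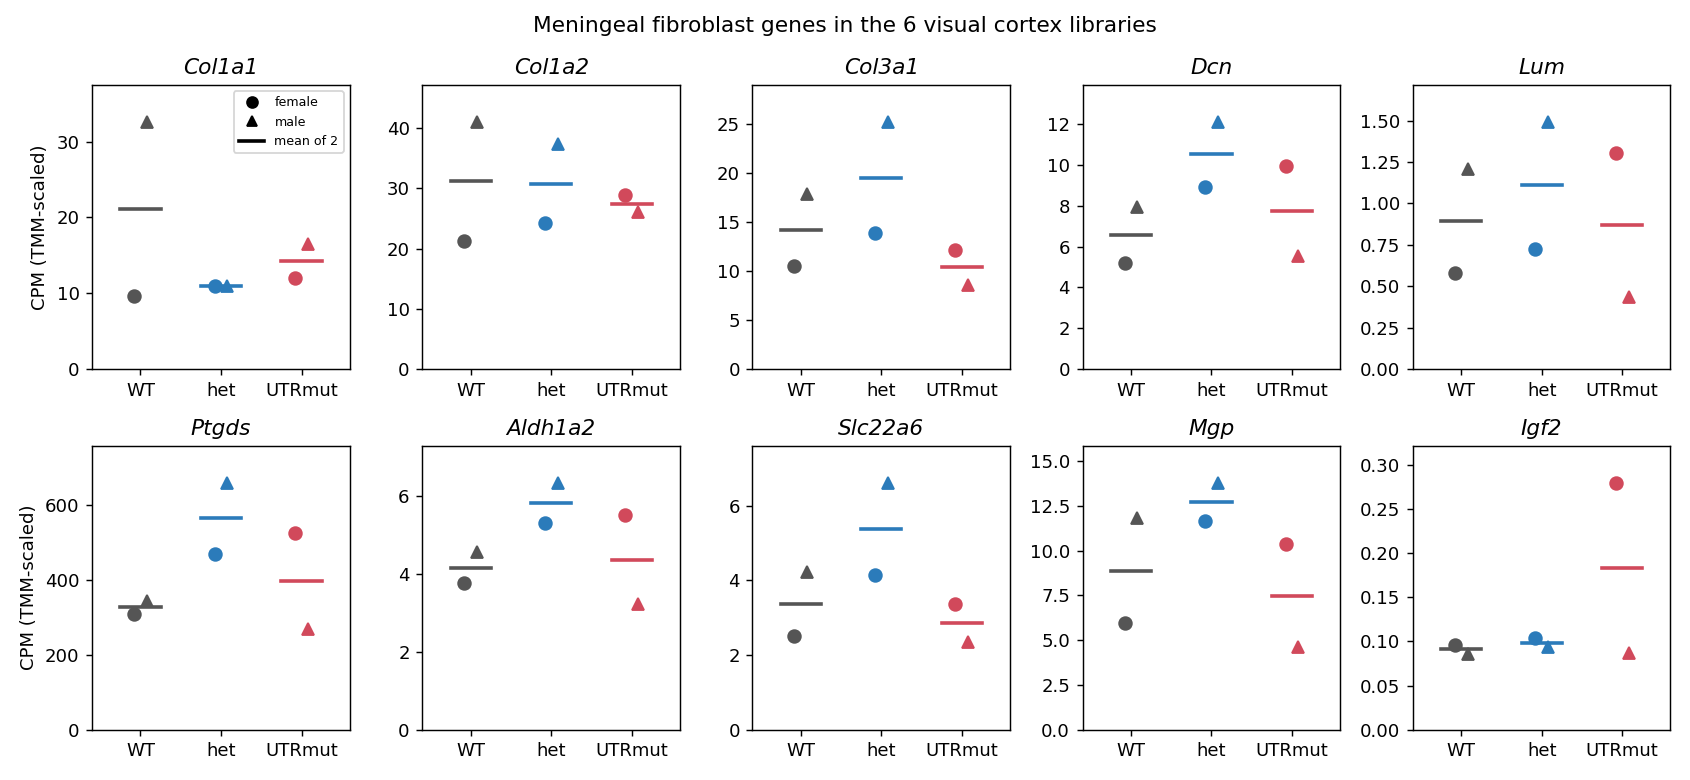
TMM-scaled CPM of the 10 genes by genotype on linear axes that start at 0, with circles for the female library, triangles for the male library and bars for the mean of the 2. The 2 libraries of one genotype often lie as far apart as the genotypes, as for Mgp, with 5.97 and 11.8 CPM in WT and 10.3 and 4.60 in UTRmut.

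No member passed the test between het and WT. A positive log2 fold was found for 7 of the 9 tested members (48.9% of all genes), led by Ptgds (0.79, SE 0.42), Dcn (0.68, SE 0.30) and Slc22a6 (0.68, SE 0.34). Mgp had 0.51 (SE 0.43), Aldh1a2 0.48 (SE 0.30), Col3a1 0.46 (SE 0.36) and Lum 0.31 (SE 0.62), while Col1a2 had -0.02 (SE 0.37) and Col1a1 -0.96 (SE 0.67). The median was 0.48, against 0.00 over all 16119 genes tested. In this comparison 0 of 9 members passed at an adjusted p under 0.05, where 0.0124% of all genes did, and their adjusted p was 0.9999 (edgeR quasi-likelihood test, Benjamini-Hochberg). At an unadjusted p under 0.05 there was 1 member, Dcn, against 1.16% of all genes on the higher side, and DESeq2 called 0. The groups did not overlap for 3 members, Dcn, Ptgds and Aldh1a2, each higher in het, where 13.4% of all genes were higher without overlap. Without the WT female (WT replicate 1) Col1a1 passed as lower in het, with a log2 fold of -1.58 (edgeR, Benjamini-Hochberg adjusted p = 0.000641, with 0.000641 to 1 as the range of 13 alternatives), a fit in which the WT male alone stood for WT and was assumed to vary like the other groups. Without that same library the median of the members was 0.13, and without the WT male it was 0.90.

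Between UTRmut and WT the folds of the members had mixed signs, and none passed. The log2 fold was positive for 3 of 9 (47.9% of all genes), Ptgds at 0.28 (SE 0.42), Dcn at 0.23 (SE 0.31) and Aldh1a2 at 0.06 (SE 0.31). The others were Col1a1 at -0.58 (SE 0.65), Col3a1 at -0.46 (SE 0.38), Mgp at -0.27 (SE 0.44), Slc22a6 at -0.25 (SE 0.36), Col1a2 at -0.19 (SE 0.37) and Lum at -0.07 (SE 0.64). The median was -0.19, against -0.01 over all genes. Of the 9, 0 passed, where 0.0062% of all genes did (edgeR, Benjamini-Hochberg adjusted p = 0.9988), 0 had an unadjusted p under 0.05 (2.71% of all genes), DESeq2 called 0, and the groups overlapped for all 9 (28.6% of all genes did not overlap). The sign of the median depended on the WT libraries: it was -0.57 without the WT female and 0.37 without the WT male. Col1a1 passed as lower in UTRmut without the WT female, with a log2 fold of -1.20 (edgeR, Benjamini-Hochberg adjusted p = 0.0132, with 0.0132 to 1 as the range of 13 alternatives), and had 0.57 without the WT male.

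For UTRmut against het, 8 of 9 members had a negative log2 fold (50.3% of all genes). Slc22a6 was at -0.93 (SE 0.35), Col3a1 at -0.92 (SE 0.37), Mgp at -0.78 (SE 0.44) and Ptgds at -0.51 (SE 0.42). Dcn was at -0.45 (SE 0.30), Aldh1a2 at -0.42 (SE 0.30), Lum at -0.38 (SE 0.63) and Col1a2 at -0.17 (SE 0.37). Col1a1 alone was positive, at 0.38 (SE 0.68). The median was -0.45, against 0.00 over all genes. Here too 0 members passed, where 0.0124% of all genes did (edgeR, Benjamini-Hochberg adjusted p = 0.9999), and DESeq2 called 0. Slc22a6 and Col3a1 had an unadjusted p under 0.05 (1.74% of all genes on the lower side). Slc22a6, Col3a1 and Mgp were lower in UTRmut without overlap of the groups (17.9% of all genes), and Col1a1 was higher (16.4%). Without a filter on low counts Col3a1 passed as lower, with -0.91 (edgeR, Benjamini-Hochberg adjusted p = 0.00583, with 0.00583 to 1 as the range of 13 alternatives). This comparison shares its het libraries with the first and its UTRmut libraries with the second, so the 3 sets of folds are not independent. Without the UTRmut female the median was -1.07, and without the UTRmut male it was -0.09.

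**Figure D3:**
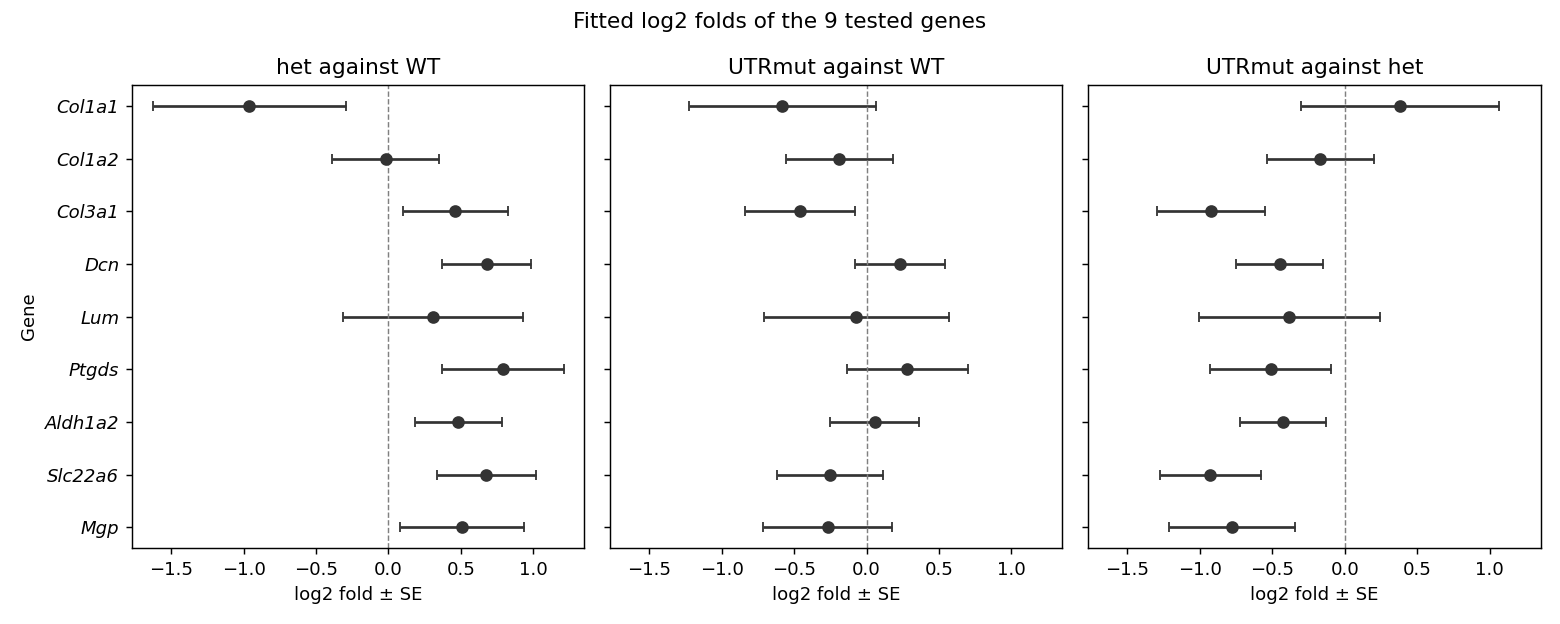
Fitted log2 folds of the 9 tested genes with 1 SE for the 3 genotype comparisons, on a common axis. In het against WT 7 of 9 points lie right of 0, in UTRmut against het 8 of 9 lie left of it, and no point passed the test.

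Split by sex, the differences between UTRmut and WT pointed in opposite directions. For UTRmut against WT, all 9 members were higher in the mutant in the female pair of libraries (48.5% of all genes were) and 0 of 9 in the male pair (50.5% of all genes). The median log2 difference was 0.53 in the female pair and -0.80 in the male pair. Lum differed by 0.97 in females and -1.17 in males, Mgp by 0.78 and -1.32, Dcn by 0.92 and -0.50, and Col3a1 by 0.20 and -1.04. For het against WT, in contrast, 9 of 9 members were higher in the female pair (49.7% of all genes) and 7 of 9 in the male pair (50.5%), with medians of 0.48 and 0.46. The exceptions in males were Col1a1 (-1.56) and Col1a2 (-0.14). For UTRmut against het, 6 of 9 were higher in the female pair (48.8% of all genes) and 1 of 9 in the male pair (50.7%), with medians of 0.13 and -1.30. There Col3a1 (-0.19 and -1.53), Slc22a6 (-0.29 and -1.43) and Mgp (-0.17 and -1.55) were lower in both sexes, and Col1a1 (0.13 and 0.58) was higher in both. Each of these differences is between 1 library and another, so a difference between the sexes and a difference between single libraries cannot be told apart. Both comparisons with WT in the female pair use the same WT female library. That library was also below the WT male for all 9 members, with a median log2 difference of -0.76.

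**Figure D4:**
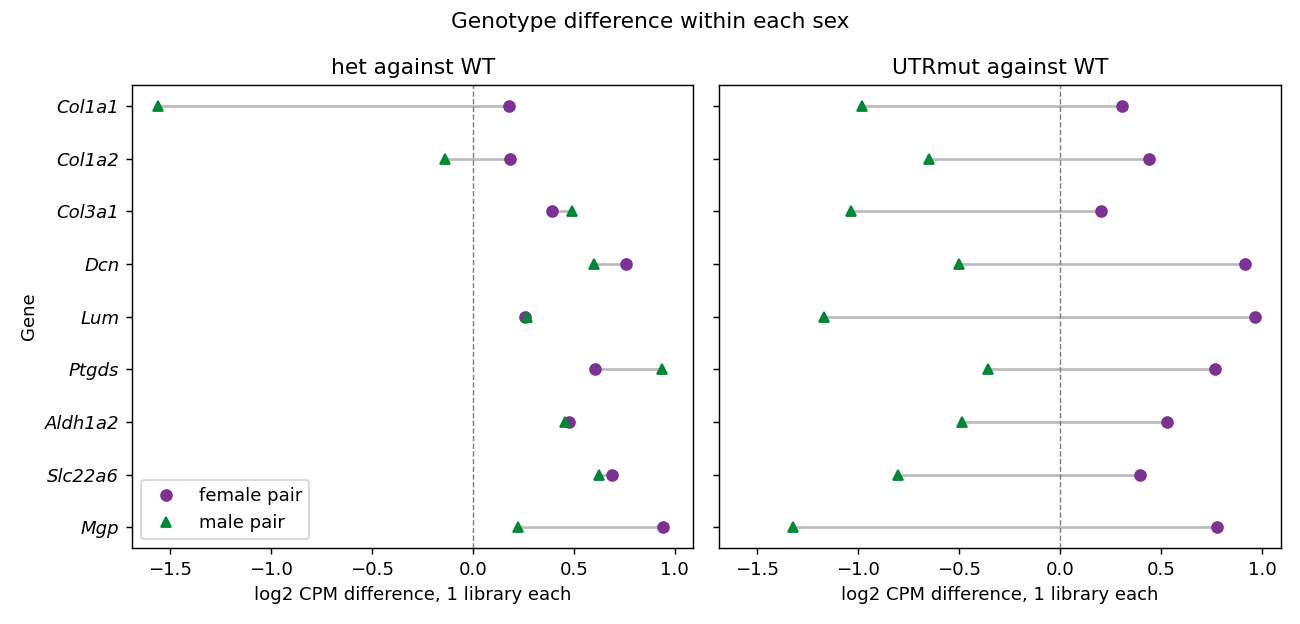
Difference in log2 CPM between single libraries of the same sex for het against WT (left) and UTRmut against WT (right), with circles for the female pair and triangles for the male pair. In the right panel all 9 circles lie above 0 and all 9 triangles below 0.

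Whether the change per mutant allele differed between females and males was tested over all genes, a test chosen after the data were seen. This test takes the change as a straight line over 0, 1 and 2 alleles in each sex. With 1 library per genotype and sex, its residual spread is departure from those lines, not difference between replicate animals. Its estimate was positive, that is higher in females, for all 9 members, and for 48.9% of all genes. Col1a2, with 0.54 per allele (SE 0.11), was the 1 member that passed (edgeR, Benjamini-Hochberg adjusted p = 0.0219), where 1.2% of all genes did. The estimate was larger for every other tested member but Aldh1a2 (0.49, SE 0.29). These larger estimates ran from Slc22a6 (0.548, SE 0.43) to Lum (1.19, SE 0.56), with Mgp at 0.96 (SE 0.47) and Col1a1 at 0.69 (SE 0.55). None of the other members passed (edgeR, Benjamini-Hochberg adjusted p from 0.364 to 0.829). The Col1a2 call was lost without the WT female (edgeR, Benjamini-Hochberg adjusted p = 0.261), the UTRmut female (0.376) or the UTRmut male (0.358), and with DESeq2 (0.193). Over 11 alternatives its adjusted p ranged from 0.000287 to 0.376 and its estimate from 0.36 to 0.74. Between 0 and 6 members passed in the 6 fits that left out a library, while the number of all genes that passed ran from 24 to 736. There were 6 members among 157 genes without the WT male, 6 among 736 without the het male and 0 among 24 without the WT female, against 1 among 194 with all libraries. Without the UTRmut male 4 of the 9 estimates were positive.

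No member passed between females and males with genotype in the model. The log2 fold for females against males was negative for 7 of 9 members (50.4% of all genes), with a median of -0.22 and with Col1a1 at -0.79 (SE 0.38) and Col1a2 at -0.47 (SE 0.21). Of the 9, 0 passed, where 0.0372% of all genes did (edgeR, Benjamini-Hochberg adjusted p of 0.725 to 0.980), 0 had an unadjusted p under 0.05 (6.99% of all genes) and DESeq2 called 0. Without a filter on low counts Col1a2 passed, with -0.49 (edgeR, Benjamini-Hochberg adjusted p = 0.00646, with 0.00646 to 0.9998 as the range of 12 alternatives).

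Other genes of the meninges, on lists that exclude the members, had the same highest and lowest libraries by their medians, but not gene by gene. Of 18 transcription factors of leptomeningeal cells 12 were tested, and relative to the mean of the libraries their median was highest in the het male (0.53, log2) and lowest in the UTRmut male (-0.71). Zic1 had 6.16 and 7.24 CPM in the WT female and male, 6.96 and 10.6 in the het pair, and 8.20 and 3.82 in the UTRmut pair. Zic2 and Osr1, the other two of highest level, had log2 folds for het against WT of 0.45 (SE 0.33) and 0.68 (SE 0.43). Of 24 leptomeningeal and arachnoid markers 23 were matched and 20 tested, and their median ran from -0.27 in the UTRmut male to 0.35 in the het male. For het against WT 17 of these 20 had a positive log2 fold (48.9% of all genes), with a median of 0.25. It ran from 0.11 without the het male to 0.45 without the WT male. Of the 12 transcription factors 11 were positive, with a median of 0.42 (0.15 without the het male, 0.72 without the het female). For UTRmut against het 19 of the 20 markers and 11 of the 12 transcription factors were negative (50.3% of all genes). The 3 most abundant markers differed little between het and WT: Cldn11, shared with oligodendrocytes, was at -0.05 (SE 0.11), Igfbp6 at 0.05 (SE 0.17) and S100a6 at 0.16 (SE 0.23). Cldn11 was highest in the UTRmut male (129 CPM) and Igfbp6 in the WT male (26.4 CPM). Slc6a13, a GABA transporter of leptomeningeal cells, is given here although it was picked with its values known: the WT female and male had 4.72 and 8.02 CPM, the het pair 8.62 and 9.79, and the UTRmut pair 8.76 and 3.30.

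Macrophages that live at the border of the brain and endothelial cells had the same highest and lowest libraries, the latter within a narrower range. Of 10 border macrophage markers 5 were tested, and their median was highest in the het male (0.63) and lowest in the UTRmut male (-0.75). All 10 summed to 23.5 to 30.1 CPM in WT, 29.3 to 39.99 in het and 17.2 to 30.01 in UTRmut, and none was at 0 in every library. Mrc1, the mannose receptor, had 5.87 and 7.50 CPM in the WT female and male, 6.13 and 10.3 in the het pair, and 8.57 and 3.30 in the UTRmut pair. Medians of the 13 tested mural cell markers lay between -0.27 in the UTRmut male and 0.15 in the UTRmut female, those of the 14 endothelial markers between -0.13 in the UTRmut male and 0.15 in the het male, and those of the 12 neuronal markers between -0.11 and 0.08. No gene of these lists passed in any of the 3 genotype comparisons (0 genes, edgeR, Benjamini-Hochberg), and the part of these cells in the members' differences was not tested.

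**Figure D5:**
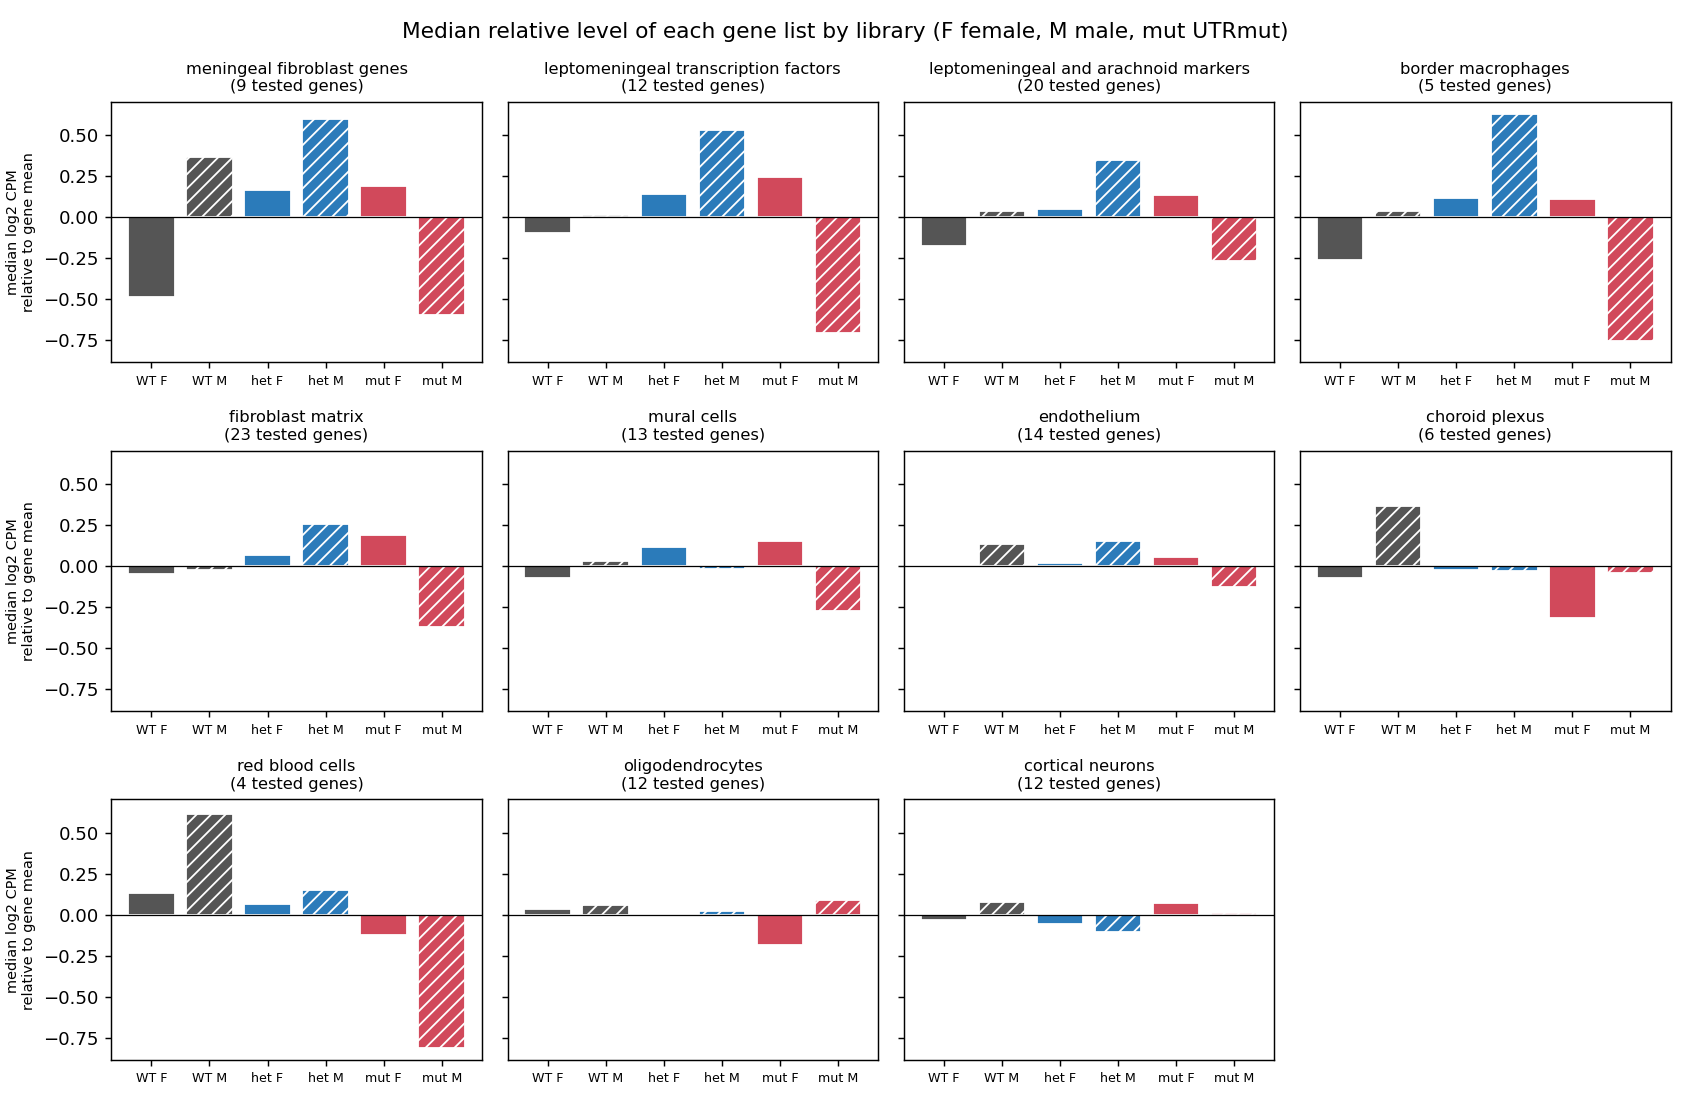
Median over the tested genes of each list of log2 CPM relative to the gene's mean, by library, with WT in grey, het in blue, UTRmut in red and hatching for males. Highest in the het male and lowest in the UTRmut male are the fibroblast genes, both leptomeningeal lists, border macrophages, fibroblast matrix and, within a narrower range (-0.13 to 0.15), endothelium. The mural and red blood cell lists are also lowest in the UTRmut male, but highest in the UTRmut female and in the WT male. The choroid plexus, oligodendrocyte and neuronal lists have other extremes.

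Matrix genes that fibroblasts share with other cells followed in part. Of 25 fibroblast matrix genes 23 were tested. For het against WT 18 were positive with a median of 0.18 (members 0.48, all genes 0.00), 8 were higher without overlap (13.4% of all genes) and 2 lower. For UTRmut against WT 9 were positive (median -0.09, and -0.34 without the UTRmut female or 0.19 without the UTRmut male). For UTRmut against het 4 were positive (median -0.29, and -0.64 or -0.07 without the same libraries). Fn1, fibronectin, had 35.4 and 56.2 CPM in the WT female and male, 37.8 and 59.3 in the het pair, and 57.4 and 25.6 in the UTRmut pair. Col6a1 had a log2 fold for het against WT of 0.34 (SE 0.14) and Col5a1 of 0.16 (SE 0.15). Of 17 enzymes and chaperones of collagen maturation 15 were tested, 10 of them positive for het against WT (median 0.11, and 0.004 without the WT female) and 5 for UTRmut against WT (median -0.12). Serpinh1, the collagen chaperone HSP47, was at 0.47 (SE 0.16) for het against WT, P4ha1 at 0.17 (SE 0.11) and Colgalt1 at -0.10 (SE 0.11). No gene of the 2 lists passed (0 genes, edgeR, Benjamini-Hochberg).

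The pathways that Ptgds, Aldh1a2 and Igf2 belong to had medians nearer 0, and 0 of their other genes passed in any genotype comparison (edgeR, Benjamini-Hochberg). Of 20 prostaglandin genes 17 were tested, 12 of them positive for het against WT (median 0.20) and 11 for UTRmut against WT (median 0.13). Leaving out 1 library moved these medians from 0.06 (without the het male) to 0.36 (without the WT male), and from -0.06 (without the UTRmut female) to 0.29 (without the WT male). Ptgs2, cyclooxygenase 2, which neurons induce with activity, was at 0.20 (SE 0.38) and 0.79 (SE 0.38), Ptges3 at 0.05 (SE 0.11) and 0.14 (SE 0.11), and Ptges2 at 0.05 (SE 0.15) and 0.11 (SE 0.15). Of 20 retinoic acid genes 18 were tested, 12 positive for het against WT (median 0.09) and 8 for UTRmut against WT (median -0.02). These ran from -0.002 to 0.20 and from -0.10 to 0.16 without the WT female and without the WT male. Aldh1a1 was at 0.06 (SE 0.15) and 0.30 (SE 0.14), and the receptor gene Rxrb at 0.01 (SE 0.12) in each. Of 18 genes of the insulin-like growth factor system 14 were tested, 6 positive for het against WT (median -0.04) and 5 for UTRmut against WT (median -0.07). Without the WT female and without the WT male these were -0.12 and 0.05, and -0.17 and 0.08. Irs2 was at 0.08 (SE 0.35) and 0.18 (SE 0.34), and Igfbp5, a binding protein, at -0.10 (SE 0.09) and -0.33 (SE 0.09).

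The genes most like the members were ranked by the Pearson r of their log2 CPM with the mean of the 9 tested members over the 6 libraries, among 12989 protein-coding genes of at least 1 CPM on average. The first 10 were Rdh5, Tstd2, Slc12a7, Kank2, Itpr3, Xbp1, Hus1, Nid1, Islr and Nxn, with r from 0.968 to 0.997. Rdh5 was on the retinoic acid list and Islr on the fibroblast matrix list. Rdh5 had 0.674 and 1.38 CPM in the WT female and male, 1.04 and 1.58 in the het pair, and 1.12 and 0.695 in the UTRmut pair. Nid1, the basement membrane protein nidogen, had 6.35 and 12.1 CPM in the WT pair, 8.73 and 11.8 in the het pair, and 9.79 and 5.21 in the UTRmut pair. Over all candidates 3.4% had an r above 0.8, against 7 of 20 leptomeningeal and arachnoid markers, 2 of 11 leptomeningeal transcription factors, 7 of 23 fibroblast matrix genes and 2 of 15 collagen maturation genes. It was 3 of 5 for border macrophages, 2 of 5 for RNA quality and dissociation, 3 of 17 for retinoic acid, 2 of 15 for prostaglandin, 2 of 14 for endothelium and 1 of 12 for oligodendrocytes. The other 7 lists, red blood cells, mural cells, astrocytes and neurons among them, had 0. By the median r, border macrophages (0.85), leptomeningeal markers (0.71) and leptomeningeal transcription factors (0.63) came first. Red blood cells (0.59), bone and cartilage (0.58), endothelium (0.57), astrocytes (0.57) and fibroblast matrix (0.57) were close to each other. Mural cells (0.55) and RNA quality and dissociation (0.54) came next, against 0.04 over all candidates. Since the 6 libraries give all genes the same depth and scaling, r is given as a description.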

How the data were processed

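RNA-seq was measured in 6 visual cortex libraries, 2 for each of 3 genotypes. The authors deposited raw read counts per Ensembl gene, without normalisation and with replicates kept apart. The submitters' processing notes name HTSeq 0.6.0, HISAT2, Trimmomatic 0.39 and GATK 4.2.3.0, and build GRCm38, without their roles. Strand setting, annotation release and filters: not given in the sources used here. Symbols, positions and exon lengths came from GENCODE M21 (GRCm38), which matched 55227 of 55487 identifiers. Samples were grouped by the genotype label, and columns by the sample description.

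The filter filterByExpr, with genotype as group, a minimum count of 10 and a minimum total of 15, kept 16119 genes. In R 4.3.3, edgeR 4.0.16 scaled the counts by TMM and ran its robust quasi-likelihood F test on all 6 libraries. Benjamini-Hochberg adjustment covered the 16119 genes, and an adjusted p under 0.05 passed. Residual degrees of freedom were 3 for genotypes and 2 for the sexes. The SE of a log2 fold is its size over the root of its F statistic. DESeq2 1.42.0, other scalings, no filter, a replicate block and leaving out each library were alternatives. Relative levels use log2 CPM with a prior count of 2.

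Members and lists were chosen with earlier results of these data known. By the naming rule, all 10 members, the 3 genes of highest length-scaled level in each list and the 10 genes most like the members are named, and others are marked as named after their values were seen. Replicates of a genotype differed by more than sampling noise (chi-square over its degrees of freedom 4.49 to 8.50). Total counts per library limit the precision of genes with few counts.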

Additional observations from a re-analysis of the deposited data

Results flagged for a closer look

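Lum differed between UTRmut and WT in opposite directions in the 2 sexes, by 0.97 (log2) in the female pair and -1.17 in the male pair, and between UTRmut and het by 0.71 and -1.44. Its change per allele did not pass as different between the sexes (edgeR, Benjamini-Hochberg adjusted p = 0.364), and with 5 to 16 counts per library its exact 95% Poisson intervals overlapped. Mgp differed between UTRmut and WT by 0.78 in females and -1.32 in males and did not pass either (edgeR, Benjamini-Hochberg adjusted p = 0.491). Opposite differences of more than 0.5 in both sexes were found for 3.03% of all tested genes in UTRmut against WT and 1.77% in UTRmut against het. Col1a2 was the 1 member called in the test of a sex difference in the change per allele (edgeR, Benjamini-Hochberg adjusted p = 0.0219). That test was added after the data were seen and called 1.2% of all genes. The Col1a2 call was lost in 4 of 11 alternatives, among them DESeq2 (Benjamini-Hochberg adjusted p = 0.193). Col1a2 was higher in the UTRmut female than in the WT female by 0.44 (log2). It was lower in the UTRmut male than in the WT male by 0.65, each between single libraries.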

How the results depend on the processing

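Few counts limit Lum and Igf2, and with 2 libraries per genotype single libraries set most signs. Of the log2 folds of the 9 members in 13 alternative fits of each genotype comparison, 110 of 117 values kept sign and call for het against WT, 103 for UTRmut against WT and 113 for UTRmut against het. For females against males 91 of 108 did so. Shared numbers mark the sex, and the labels do not say whether same-numbered libraries were paired. Deviations of same-numbered libraries had an r of 0.295 (WT and het), 0.080 (WT and UTRmut) and 0.196 (het and UTRmut) over genes. These values cannot tell sex apart from a shared litter or dissection day. With the replicate block 4 genes passed for UTRmut against WT and 4 for UTRmut against het, instead of 1 and 2, and 0 members passed in any genotype comparison. The member medians with the replicate block were 0.48, -0.13 and -0.44.

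For het against WT, 2 genes passed, 13 without the filter and 1 with the WT and het libraries alone. For UTRmut against WT 1 gene passed, 5 with DESeq2, 27 without the filter and 3 with these groups alone. For UTRmut against het 2 genes passed, 6 with DESeq2, 28 without the filter, 1 without robust empirical Bayes and 10 with these groups alone. For females against males 6 genes passed and 92 without the filter. Members that passed rose from 0 to 1 without the filter for UTRmut against het (Col3a1) and for females against males (Col1a2). For the sex difference per allele, a test added after the data were seen, they went from 1 (of 194 genes that passed) to 0 (of 76) with DESeq2 and to 3 (of 600) without the filter. These causes were not tested, save that fewer samples enter the fits of the groups alone.

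Leaving out each library in turn, 1 to 30 genes passed for het against WT, 0 to 103 for UTRmut against WT, 0 to 10 for UTRmut against het and 5 to 197 for females against males. Between 0 and 1 members passed for het against WT and for UTRmut against WT, and 0 to 6 for the sex difference per allele, where 24 to 736 genes passed. The member median ran from -1.07 to -0.094 for UTRmut against het and from -0.71 to 0.16 for females against males.

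Signs turned in those fits as follows. For het against WT, Col1a1 ran from -1.58 to 0.18, Col1a2 from -0.41 to 0.54, Col3a1 from -0.045 to 0.90 and Lum from -0.31 to 0.95. For UTRmut against WT, Col1a1 ran from -1.20 to 0.57, Col1a2 from -0.58 to 0.37, Dcn from -0.25 to 0.60, Lum from -1.04 to 0.57, Ptgds from -0.28 to 0.69, Aldh1a2 from -0.37 to 0.40, Slc22a6 from -0.57 to 0.19 and Mgp from -0.96 to 0.32. For UTRmut against het, Col1a2 ran from -0.44 to 0.19 and Lum from -1.35 to 0.24. For females against males, Dcn ran from -0.52 to 0.16, Lum from -1.04 to 0.21, Mgp from -0.58 to 0.37, Ptgds from -0.33 to 0.40 and Aldh1a2 from -0.27 to 0.24. Scaled by library totals alone, Aldh1a2 for UTRmut against WT was at -0.00072 instead of 0.06.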

Other observations

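Transcripts of red blood cells shared their lowest library with the fibroblast genes but not their highest. All 4 tested genes of this list were lower in UTRmut than in WT without overlap of the groups (14.6% of all genes), with a median log2 fold of -0.90, which was -1.24 without the UTRmut female and -0.54 without the WT male. Hbb-bs had 110 and 131 CPM in the WT female and male, 101 and 99.6 in the het pair, and 95.2 and 58.3 in the UTRmut pair. None passed over all genes tested (edgeR, Benjamini-Hochberg adjusted p = 0.9988). The UTRmut male was lowest on this list (-0.81, log2) as on the fibroblast genes (-0.60), while the WT male was highest on this list (0.61) and the het male on the fibroblast genes (0.60).

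Among markers of mural cells, Vtn, vitronectin, had 28.0 and 28.9 CPM in the WT female and male, 39.1 and 47.8 in the het pair, and 42.4 and 29.6 in the UTRmut pair. Its log2 fold for het against WT was 0.61 (SE 0.17), short of the threshold (edgeR, Benjamini-Hochberg adjusted p = 0.9999), and Rgs5 and Mcam had -0.23 (SE 0.25) and 0.25 (SE 0.17). All 12 neuronal markers had a positive log2 fold for UTRmut against het, with a median of 0.11. The fold was negative for 8 of 9 fibroblast genes and for 50.3% of all genes. Of the 12 neuronal markers 9 were higher in UTRmut without overlap of the groups, where 16.4% of all genes were. None of them passed (0 genes, edgeR, Benjamini-Hochberg).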
